A study of Mus musculus with 18 samples.

Results

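The p53 gene Trp53, its inhibitor Mdm2 and 8 genes known as p53 targets (Ccng1, Bbc3, Sesn2, Trp53inp1, Cdkn1a, Bax, Pmaip1 and Zmat3) were followed in mouse spleen erythroblasts of 5 Klf1 genotypes. These 10 genes were taken by name from the 23365 rows of the deposited count table, and all 10 were among the 13405 genes with enough counts to be tested. They were chosen with earlier results of these data known, so their shares beside all genes describe the list and do not test it. RNA was sequenced from cells sorted as CD71+ (the transferrin receptor) and TER119+ (a red cell surface marker). Klf1 is the gene of a zinc finger transcription factor of red cell precursors, and D45 (MommeD45 in the deposited tables) is a missense allele, which the series title places in the linker-2 between zinc fingers. The genotypes were WT/WT with 3 mice, WT/D45 with 3, D45/D45 with 3, WT/KO with 5 and D45/KO with 4, where KO is a knockout allele. D45/KO is the compound heterozygote, for which the series design reports haemolytic anaemia, a large spleen and more erythroid progenitors. The sorted fraction can therefore differ between genotypes in the mix of erythroblast stages, and in RNA from a bulk sort fewer cells of a type and less RNA per cell cannot be told apart. No age, sex or strain was given in the sources used here, and no treatment apart from the sort.

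p53 is a transcription factor that is made continuously and kept low because Mdm2, a ubiquitin ligase, marks it for degradation. When DNA damage, ribosome stress or other signals free p53 from Mdm2, it binds paired half-sites in target genes and raises transcripts for cell cycle arrest, apoptosis and stress metabolism. Mdm2 is itself a target, so that its transcript is a common readout of p53 activity. p53 is held mainly at the level of its protein, and a transcript level of Trp53 is no measure of that protein. In erythroid cells p53 is best known from disorders of ribosome production, where it contributes to the loss of red cell precursors.

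To show what a p53 site looks like in these genes, the 250 bases before each annotated start were searched with the p53 response element consensus, 2 adjoining half-sites that make 20 bases and read the same on both strands. A stretch counted as a match only where the fixed C and G of both half-sites were present, 4 bases in all. Sequences are from RefSeq on GRCm38.p6, a later build than the mm9 genome that the submitters name, and 7 of the 10 genes had an entry that was used. The closest matches of 4 genes are shown 5′ to 3′, with the 4-base core of each half-site in capitals.
Cdkn1a: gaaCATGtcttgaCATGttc
Ccng1: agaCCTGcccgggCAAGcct
Bbc3: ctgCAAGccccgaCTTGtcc
Trp53: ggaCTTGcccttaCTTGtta

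The Cdkn1a match lies at chr17:29090928-29090947 on the plus strand, 51 to 32 bases before 1 of its annotated starts, with 1 mismatch to the consensus. The Ccng1 match lies at chr11:40755462-40755481 on the minus strand, 195 to 176 bases before the start, also with 1 mismatch. The Bbc3 match at chr7:16309486-16309505 and the Trp53 match at chr11:69580284-69580303, both on the plus strand, have 3 mismatches each. Of all 32851 promoter windows in the table, 0.0578% held a match with at most 1 mismatch and 1.14% a match with at most 3. Cdkn1a and Bbc3 had further annotated starts, where the closest matches had 7 mismatches for Cdkn1a and 7 and 8 for Bbc3. Among stretches that keep these 4 bases, the closest had 7 mismatches in Bax and 9 in Mdm2 and Sesn2, which says only that these letters are not in these windows. A match is a description of sequence, and binding of p53 was not measured.

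Library depth ran from 9.36 to 56.3 M counts (M stands for 1000000), with a median of 29.8 M, and levels are given as counts per 1000000 (CPM) on library sizes adjusted with TMM factors of 0.366 to 1.93. All 8 erythroid markers were detected in every library. Libraries differed within genotypes in B cell transcripts. Cd79a, which encodes part of the B cell antigen receptor, was at 22.0 to 219 CPM in 9 libraries and at 0 to 2.22 CPM in the other 9, and these are called Cd79a-high and Cd79a-low. Summed erythroid markers were 11860 to 36799 CPM in the Cd79a-high and 43381 to 106582 CPM in the Cd79a-low libraries. The Cd79a-high set held 1 library each of WT/WT, WT/D45 and D45/D45, 3 of WT/KO (195 to 219 CPM of Cd79a) and 3 of D45/KO (22.0, 23.0 and 85.2 CPM). Klf1, the gene that carries the alleles, was at 282 to 763 CPM in D45/KO, at 158 to 230.3 CPM in the Cd79a-high and 659 and 834 CPM in the Cd79a-low WT/KO libraries, and at 452 to 1047 CPM in WT/WT, and a transcript count does not tell the missense allele from wild type. Nearly all counts were even numbers in D45/KO replicate 2 (98.5% of nonzero counts) and D45/D45 replicate 1 (97.3%), against 51.9% to 76.7% elsewhere. D45/KO replicate 2 and WT/KO replicate 2 also had the highest summed macrophage markers, at 2568 and 2333 CPM. Each comparison was therefore tested with genotype alone and again with the log2 CPM of Cd79a as a covariate, which compares genotypes at an equal Cd79a level and assumes the same relation to Cd79a in each genotype.

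**Figure D1:**
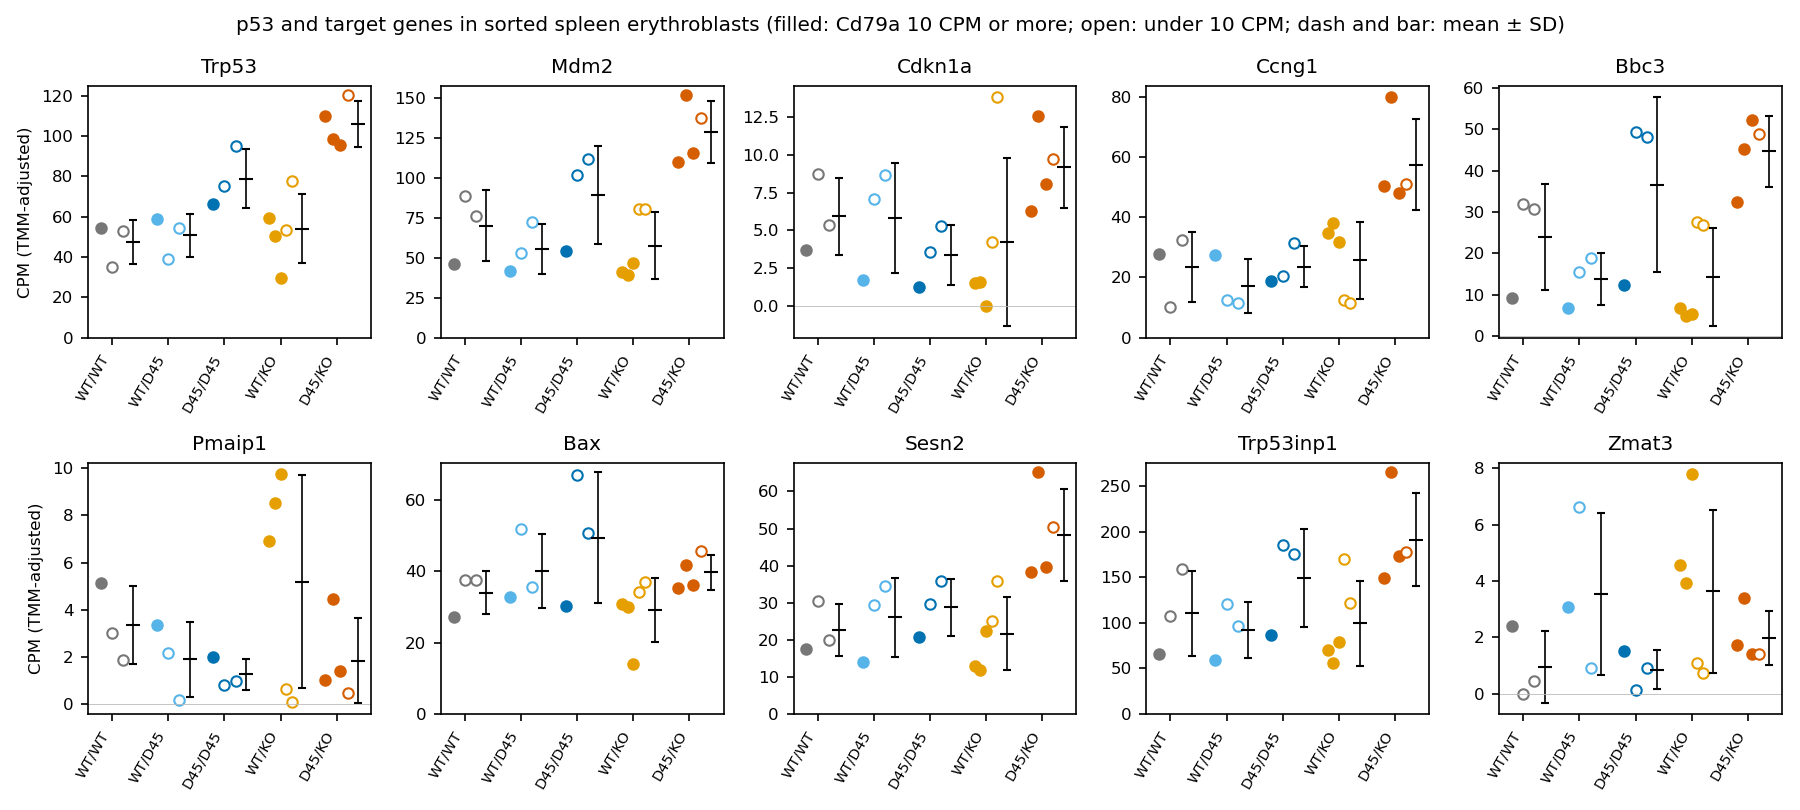
CPM of each of the 10 genes (vertical axes, each on its own scale) in the 18 libraries by Klf1 genotype. Filled points are Cd79a-high and open points Cd79a-low libraries, and the dash with its bar is the mean ± SD. Trp53, Mdm2, Ccng1, Bbc3 and Sesn2 are higher in all 4 D45/KO libraries than in any of the 5 WT/KO libraries.

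Transcripts of Trp53, Mdm2, Ccng1, Bbc3 and Sesn2 were at higher levels in every D45/KO library than in any WT/KO library, by 0.97 to 1.65 on the log2 scale, where 1.78% of all genes were higher without overlap. At equal Cd79a level these 5 genes and Trp53inp1 were called higher in D45/KO than in WT/KO, against 2.51% of all genes, with Bbc3 showing the largest difference (2.14 ± 0.27, SE) among the 6. The call of Ccng1 was lost in each of 9 fits that left out 1 library, that of Trp53 in 3 and that of Sesn2 in 1. Without the 2 libraries highest in macrophage markers, Mdm2 and Bbc3 kept their calls, and Trp53, Trp53inp1, Sesn2 and Ccng1 did not. With genotype alone none of the 10 genes passed the test. Cdkn1a, Bax, Pmaip1 and Zmat3 passed in neither fit. The 10 genes were chosen with earlier results of these data known. Of 56 other p53 pathway genes, 4 were called higher at equal Cd79a level.

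Trp53 transcript stood at 109.9, 98.3, 95.7 and 120.2 CPM in D45/KO replicates 1 to 4. In D45/D45 it was at 66.3, 74.9 and 95.2 CPM, and in the 5 WT/KO libraries at 59.4, 50.5, 29.4, 53.5 and 77.5 CPM. The D45/KO libraries were the 4 highest of the series and the D45/D45 libraries overlapped WT/KO. WT/D45 had 58.7, 38.8 and 54.4 CPM and WT/WT 54.3, 34.8 and 53.02 CPM of Trp53. The means ± SD were in the order D45/KO (106 ± 11.3), D45/D45 (78.8 ± 14.8), WT/KO (54.1 ± 17.3), WT/D45 (50.6 ± 10.5) and WT/WT (47.4 ± 10.9), where the last 3 lay within their spread of each other.

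Mdm2, the inhibitor and target of p53, had 109.9, 152, 116 and 137 CPM in D45/KO. In WT/KO it had 41.1, 39.2 and 46.8 CPM in the Cd79a-high and 80.3 and 80.3 CPM in the Cd79a-low libraries. D45/D45 was split in the same manner, with 54.4 CPM in its Cd79a-high and 102 and 111 CPM in its Cd79a-low libraries. WT/D45 had 41.6, 52.6 and 72.4 CPM and WT/WT 45.8, 88.5 and 75.9 CPM, with the Cd79a-high library lowest in each. D45/KO did not overlap WT/KO, WT/D45 or WT/WT, and its lowest library was just under the highest of D45/D45.

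Among the arrest genes, Ccng1, which encodes cyclin G1, a p53 target that acts on Mdm2 through a phosphatase, had 50.5, 80.0, 48.1 and 51.1 CPM in D45/KO. In WT/KO it had 34.6, 38.1 and 31.6 CPM in the Cd79a-high and 12.5 and 11.3 CPM in the Cd79a-low libraries, the reverse of the order of Mdm2. The other genotypes ran from 10.1 to 32.3 CPM, so that all 4 D45/KO libraries lay above every other library for Ccng1. Cdkn1a, the p21 inhibitor of cyclin-dependent kinases, was low throughout, with 6.27, 12.6, 8.09 and 9.75 CPM in D45/KO. In WT/KO it ran from 0 CPM in replicate 3, the shallowest library, to 13.8 CPM in replicate 5, which was the highest of the series, and so the groups overlapped. The mean ± SD of Cdkn1a was 9.17 ± 2.67 CPM over D45/KO (n = 4) and 3.36 ± 2.01 CPM over D45/D45 (n = 3).

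Among the apoptosis genes, Bbc3, which encodes the BH3-only protein PUMA, had 32.5, 45.2, 52.4 and 48.9 CPM in D45/KO. In WT/KO its levels were 6.66, 4.93 and 5.24 CPM in the Cd79a-high and 27.6 and 26.8 CPM in the Cd79a-low libraries. In each genotype other than D45/KO the Cd79a-high libraries were the lowest, whereas in D45/KO the 3 Cd79a-high libraries lay on both sides of the Cd79a-low one (48.9 CPM). D45/D45 had 12.3, 49.4 and 48.2 CPM, WT/D45 6.68, 15.6 and 18.9 CPM and WT/WT 9.19, 32.1 and 30.6 CPM of Bbc3. The 2 Cd79a-low D45/D45 libraries were therefore within the range of D45/KO.

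Pmaip1, which encodes the BH3-only protein NOXA, was highest where Cd79a was highest, with 6.91, 8.52 and 9.76 CPM in the Cd79a-high and 0.623 and 0.0670 CPM in the Cd79a-low WT/KO libraries. D45/KO had 1.03, 4.46, 1.39 and 0.462 CPM of Pmaip1, within that range. Bax, the pore-forming effector of the mitochondrial pathway, ran from 14.1 to 67.1 CPM over all libraries, with group means of 29.2 ± 8.93 CPM in WT/KO, 39.7 ± 4.94 CPM in D45/KO and 49.4 ± 18.4 CPM in D45/D45, and its groups overlapped in each comparison made.

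Among the stress genes, Sesn2, a sestrin that restrains mTORC1 when amino acids are short, had 38.2, 65.1, 39.6 and 50.4 CPM in D45/KO. In WT/KO it had 12.99, 11.9, 22.5, 25.0 and 36.0 CPM, all below D45/KO. The other genotypes ran from 14.1 to 35.9 CPM, also below each D45/KO library. Trp53inp1, a nuclear body protein that promotes p53 activity and autophagy, had 149, 265, 173 and 177 CPM in D45/KO. In WT/KO it had 70.3, 56.3, 79.6, 170.3 and 122 CPM, so that replicate 4 overlapped D45/KO. Zmat3, an RNA-binding zinc finger protein, was low throughout, at 1.39 to 3.39 CPM in D45/KO, 0.737 to 7.80 CPM in WT/KO and 0 to 2.40 CPM in WT/WT. D45/KO replicate 2, 1 of the libraries that stand apart, was the highest of its group for Mdm2, Cdkn1a, Ccng1, Pmaip1, Sesn2, Trp53inp1 and Zmat3.

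**Figure D2:**
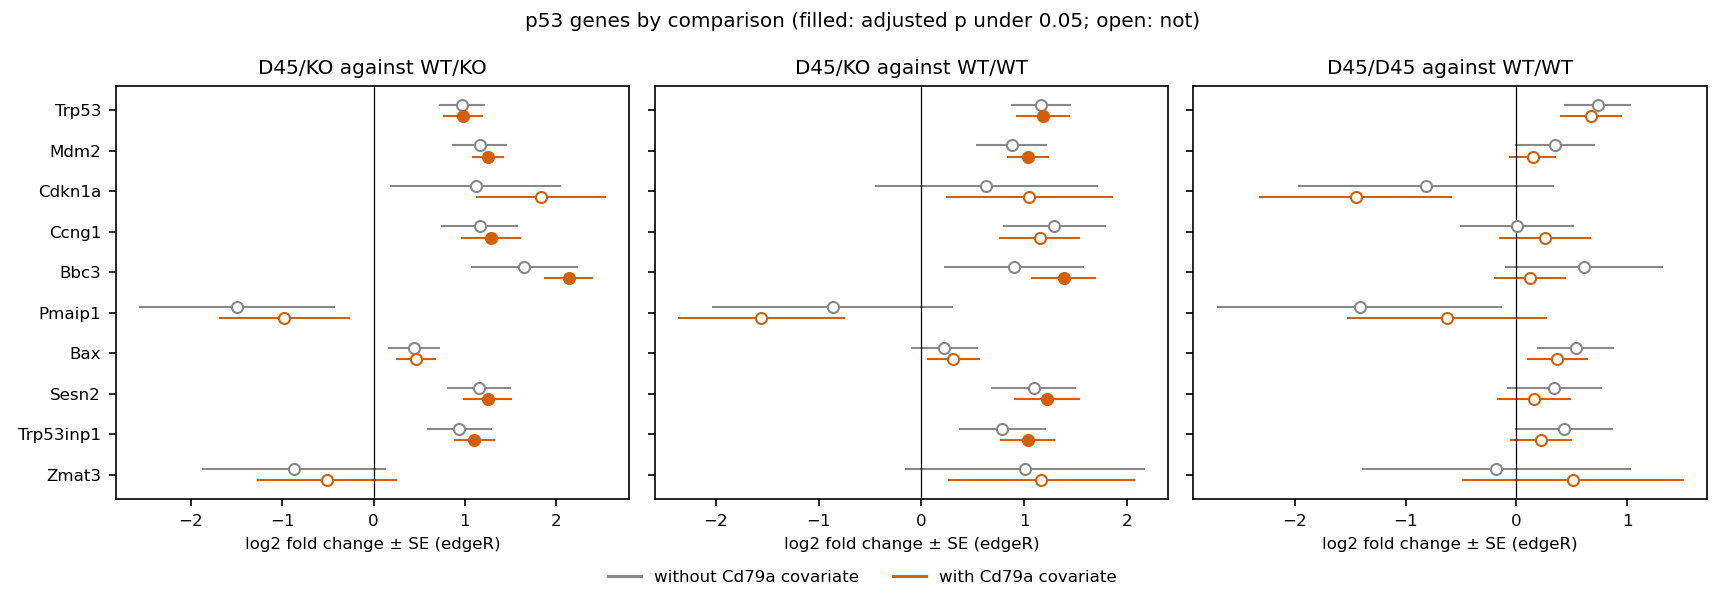
Log2 fold change ± SE from edgeR for the 10 genes in D45/KO against WT/KO, D45/KO against WT/WT and D45/D45 against WT/WT, without and with the Cd79a covariate. Filled points have an adjusted p under 0.05. In D45/KO against WT/KO, 6 genes are filled with the covariate and 0 without it.

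D45/KO against WT/KO asks what the missense allele does in place of wild type when the other allele is the knockout. With genotype alone, edgeR's quasi-likelihood test with Benjamini-Hochberg adjustment over all genes called 0 of the 10 genes, against 0.172% of all genes tested (23 genes). The smallest adjusted p among them was 0.238, for Trp53 (0.97 ± 0.25, SE) and Mdm2 (1.16 ± 0.30). At an unadjusted p under 0.05, 6 of the 10 passed, all higher in D45/KO, against 5.41% of all genes. DESeq2 called Mdm2 and Trp53, where it called 1.38% of all genes. The 5 genes whose groups did not overlap compare with 1.78% of all genes that were higher in D45/KO without overlap. The median log2 fold change was 1.04 over the 10 genes and -0.15 over all genes, and 8 of the 10 lay above 0 against 40.8% of all genes.

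With the Cd79a covariate, 6 of the 10 genes were called higher and 0 lower, against 3.19% of all genes called in either direction (427 genes) and 2.51% called higher, and 8 of the 10 against 15.7% of all genes had an unadjusted p under 0.05. Bbc3 rose by 2.14 ± 0.27 (SE, edgeR adjusted p = 0.000221) and Mdm2 by 1.25 ± 0.17 (edgeR adjusted p = 0.000441). Trp53inp1 rose by 1.10 ± 0.23 (edgeR adjusted p = 0.0105), Sesn2 by 1.25 ± 0.27 (0.0133), Trp53 by 0.98 ± 0.22 (0.0195) and Ccng1 by 1.29 ± 0.33 (0.0376). With genotype alone Trp53inp1 was at 0.94 ± 0.36, Sesn2 at 1.16 ± 0.35 and Ccng1 at 1.16 ± 0.42, close to these sizes. Bbc3 was at 1.65 ± 0.59 with genotype alone, so its difference was larger with the covariate. The standard errors of the 6 genes were smaller with the covariate. Cdkn1a stood at 1.83 ± 0.71 (edgeR adjusted p = 0.200), Bax at 0.46 ± 0.22 (0.318), Zmat3 at -0.51 ± 0.77 (0.831) and Pmaip1 at -0.98 ± 0.72 (0.576), and none of these 4 passed.

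The calls with the covariate rested on single libraries to different degrees. When each of the 9 D45/KO and WT/KO libraries was left out in turn, Bbc3, Mdm2 and Trp53inp1 were called in 9 of 9 fits and Sesn2 in 8, being lost without D45/KO replicate 2 (0.96, edgeR adjusted p = 0.050). Trp53 was called in 6 of 9 and was lost without D45/KO replicate 1, D45/KO replicate 4 or WT/KO replicate 4, with edgeR adjusted p-values of 0.0525 to 0.0661. Ccng1 was called in 0 of 9, with log2 fold changes of 1.14 to 1.42 and edgeR adjusted p-values of 0.0513 to 0.131. Cdkn1a was called without WT/KO replicate 5 (2.51, edgeR adjusted p = 0.0468). With the 2 libraries of nearly all even counts left out, Mdm2, Trp53, Trp53inp1 and Bbc3 were called, against 2.58% of all genes, and Sesn2 and Ccng1 were not. With the 2 libraries highest in macrophage markers left out, Mdm2 and Bbc3 were called, against 1.97% of all genes. Trp53, Trp53inp1, Sesn2 and Ccng1 were not, while WT/KO replicate 3 (1516 CPM of these markers) stayed in.

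Within the Cd79a classes the same contrast had very unequal support. Over the 3 D45/KO and 3 WT/KO libraries that were Cd79a-high, in a fit with genotype and class together as the groups, Bbc3 stood higher by 2.94 ± 0.28 (SE, edgeR adjusted p = 0.000145) and Mdm2 by 1.57 ± 0.21 (edgeR adjusted p = 0.000627). Trp53inp1 (1.51 ± 0.26), Sesn2 (1.60 ± 0.33), Trp53 (1.12 ± 0.28) and Cdkn1a (3.06 ± 0.91) were also called there, where 9.77% of all genes were, and Ccng1 was not (0.78 ± 0.36, edgeR adjusted p = 0.206). In the Cd79a-low class D45/KO had 1 library, which is assumed to vary like the others, against 2 of WT/KO, and 0 of the 10 genes and 0.0746% of all genes were called. There Ccng1 stood at 2.10 ± 0.52, Trp53 at 0.87 ± 0.40, Bbc3 at 0.84 ± 0.38 and Mdm2 at 0.78 ± 0.30. The difference between the classes was 2.10 ± 0.50 for Bbc3 (edgeR adjusted p = 0.302), 1.23 ± 0.47 for Trp53inp1 (0.375) and -1.33 ± 0.64 for Ccng1 (0.540), and by edgeR 0 of all 13405 genes passed that test of the difference. These differences between the classes rest on the 1 Cd79a-low library of D45/KO. Cd79a was not matched within the Cd79a-high class (22.0 to 85.2 CPM in D45/KO and 195 to 219 CPM in WT/KO). Summed erythroid markers did not overlap in that class either, at 21727 to 36799 CPM in D45/KO and 11860 to 15742 CPM in WT/KO. The part of either gap in the differences of the p53 genes there was not tested.

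Levels of the 10 genes moved with Cd79a at equal genotype, as did those of many genes. The slope of log2 level on log2 CPM of Cd79a passed edgeR's test in 9 of the 10, against 53.4% of all genes. Bbc3 (-0.19 per log2 unit of Cd79a), Cdkn1a (-0.21), Trp53inp1 (-0.09), Mdm2 (-0.08), Sesn2 (-0.07) and Bax (-0.06) were lower where Cd79a was higher. Pmaip1 (0.31), Zmat3 (0.22) and Ccng1 (0.09) were higher where Cd79a was higher, and Trp53 (-0.02 ± 0.02, SE) did not pass. With DESeq2's size factors in place of TMM, the slopes of Bax and Sesn2 lost their calls (edgeR adjusted p = 0.182 and 0.102) and that of Trp53 was 0.0040.

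**Figure D3:**
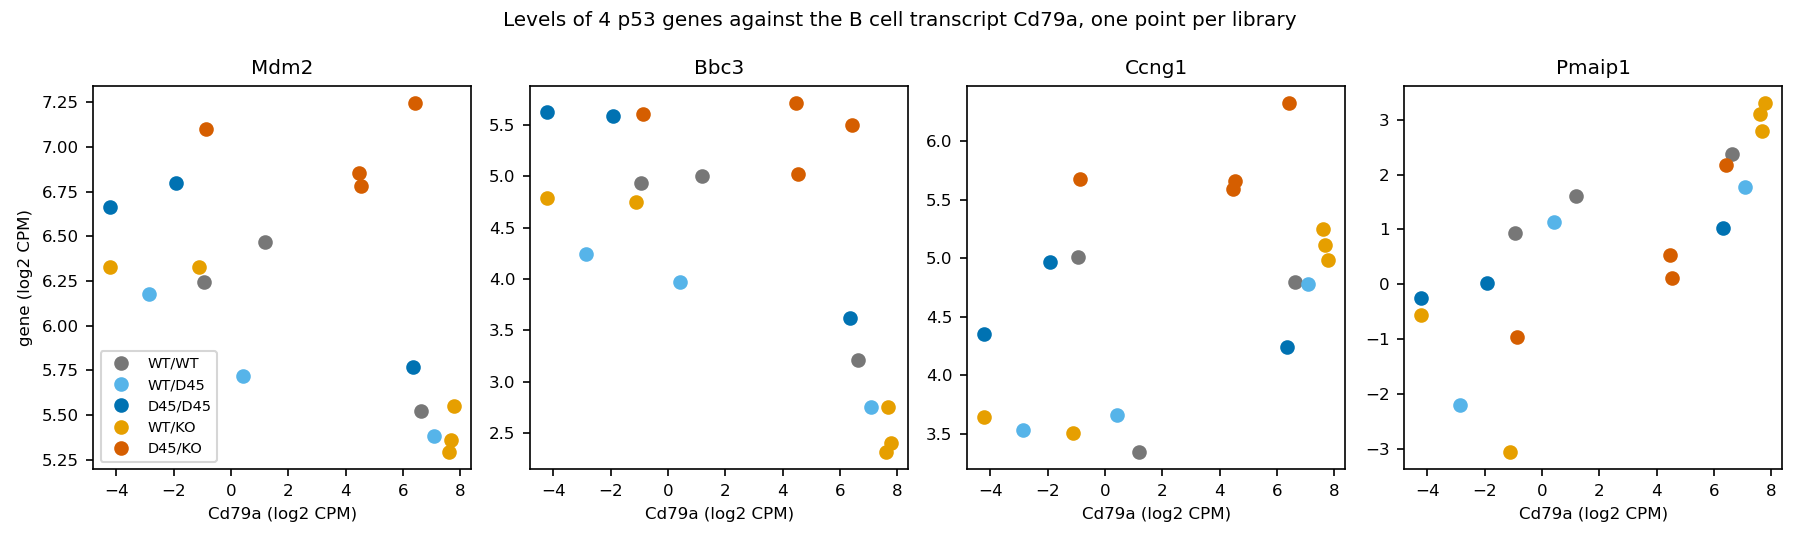
Level of selected genes (vertical axes, log2 CPM) against the level of Cd79a (horizontal axis, log2 CPM) in the 18 libraries, coloured by genotype. Bbc3 falls from the Cd79a-low to the Cd79a-high libraries in the genotypes other than D45/KO, and the D45/KO points lie at a similar height across the axis.

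Values of the markers of other blood cells in D45/KO against WT/KO are given here for whole lists. The fitted log2 fold changes of the 12 B cell markers were all below 0 with genotype alone (median log2 fold change -1.83, summed level 3.14 to 808 CPM in D45/KO and 5.12 to 2047 CPM in WT/KO), and with the covariate their median was -0.03. The summed 10 megakaryocyte and platelet markers were 431 to 819 CPM in D45/KO and 60.3 to 265 CPM in WT/KO, a sum led by Itga2b (8.39 to 654 CPM over all libraries). Of these 10 markers 4 lay above 0 with genotype alone (median -0.68, 0 called) and 5 with the covariate (median -0.33, 3 called). Itga2b, Gp9 (7.67 to 57.9 CPM) and Vwf (9.41 to 119 CPM) were detected in every library. The other markers of this list were at 0 in 2 to 8 libraries each, with highest levels from 0.473 CPM (Gp5) to 40.1 CPM (Itgb3). All 13 T and NK cell markers lay below 0 with genotype alone (median -1.47, 0 called), and 12 of 13 with the covariate (median -1.11, 1 called), at summed levels of 8.45 to 35.1 CPM in D45/KO and 15.6 to 105 CPM in WT/KO. Of 12 neutrophil markers 8 lay above 0 in either fit (medians 1.70 and 1.49, 0 called), and of 8 erythroid markers 7 (medians 0.19 and 0.55, 0 and 1 called). Of 13 macrophage markers 4 lay above 0 in either fit (median -0.11), and their sum spanned 85.6 to 2568 CPM in D45/KO and 103 to 2333 CPM in WT/KO. The part of these markers in the differences of the p53 genes was not tested.

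D45/KO against WT/WT compares the compound heterozygote with wild type. With genotype alone edgeR called 0 of the 10 genes, against 0.619% of all genes, and the smallest adjusted p was 0.106, for Trp53 (1.16 ± 0.29, SE). DESeq2 called Trp53, where it called 3.03% of all genes. At an unadjusted p under 0.05, 4 of the 10 passed, against 8.93% of all genes. The same 5 genes as above did not overlap between the groups, where 6.69% of all genes were higher in D45/KO without overlap. With the covariate 5 of the 10 were called, all higher, against 3.68% of all genes, and 6 had an unadjusted p under 0.05, against 16.5%. Mdm2 rose by 1.04 ± 0.21 (edgeR adjusted p = 0.00561), Trp53 by 1.18 ± 0.27 (0.0152), Bbc3 by 1.38 ± 0.32 (0.0175), Trp53inp1 by 1.03 ± 0.27 (0.0375) and Sesn2 by 1.22 ± 0.32 (0.0376). Ccng1 stood at 1.15 ± 0.39 (edgeR adjusted p = 0.132). Over the 7 fits that each left out 1 library, Mdm2 was called in 7, Trp53 in 5 (lost without WT/WT replicate 2 or 3), Bbc3 in 4 (lost without D45/KO replicate 3 or WT/WT replicate 1 or 3), Trp53inp1 in 3 and Sesn2 in 1. Trp53inp1 was lost without D45/KO replicate 2 or 3 or WT/WT replicate 1 or 2, and Sesn2 held only without D45/KO replicate 1. Of the 13 macrophage markers 11 lay above 0 in this comparison in either fit (medians 1.35 and 0.41, 0 called), with sums of 85.6 to 2568 CPM in D45/KO and 219.7 to 416 CPM in WT/WT. The megakaryocyte marker sum was 431 to 819 CPM in D45/KO and 37.95 to 206 CPM in WT/WT, with 7 of 10 above 0 with genotype alone (0 called) and 6 with the covariate (2 called). Of 12 neutrophil markers 3 and 1 lay above 0 (medians -1.32 and -1.93, 0 called). The part of these markers in the result was not tested. This comparison shares its D45/KO libraries with that against WT/KO, so the results are not independent.

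D45/D45 lay between D45/KO and the other genotypes in mean Trp53, Mdm2, Bbc3, Sesn2 and Trp53inp1, and of its differences only those from D45/KO and from WT/WT were tested, in which 0 of the 10 genes passed. With the covariate D45/D45 against WT/WT stood at 0.68 for Trp53, 0.15 for Mdm2, 0.12 for Bbc3, 0.16 for Sesn2 and 0.22 for Trp53inp1. In D45/KO against D45/D45, edgeR called 0 of the 10 genes with genotype alone (0.00746% of all genes) and 0 with the covariate (0.0671%), and DESeq2 called 0. At an unadjusted p under 0.05, 1 of the 10 passed with genotype alone and 6 with the covariate, against 2.26% and 3.74% of all genes. Mdm2 (0.89 ± 0.21, edgeR adjusted p = 0.29) and Bbc3 (1.26 ± 0.33, 0.448) had the smallest p-values with the covariate. Ccng1 (1.29 ± 0.50, SE) and Sesn2 (0.75 ± 0.41) had the smallest p-values with genotype alone, and their edgeR adjusted p was 1. Trp53, Cdkn1a, Ccng1 and Sesn2 did not overlap between these groups, Trp53 by 95.7 against 95.2 CPM, where 2.48% of all genes were higher in D45/KO without overlap. Of 13 macrophage markers 12 lay above 0 in D45/KO against D45/D45 in either fit (medians 2.62 and 1.42, 0 called). Of 8 erythroid markers 0 lay above 0 with genotype alone and 7 with the covariate (medians -0.58 and 0.21, 0 called). The part of these markers in the values of the p53 genes was not tested.

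In D45/D45 against WT/WT, edgeR called 0 of the 10 genes in either fit, against 0% of all genes with genotype alone and 0.343% with the covariate. Trp53 (0.73 ± 0.31, SE, edgeR adjusted p = 1) was higher in all 3 D45/D45 libraries than in any WT/WT library, as were 7.38% of all genes, and Bax stood at 0.54 ± 0.35 (0.26 without D45/D45 replicate 2). The unadjusted edgeR p of 0.0282 made Trp53 the 1 gene of the 10 under 0.05 with genotype alone (4.07% of all genes), as it was with the covariate (8.48%), and DESeq2 called 0.

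With a wild-type allele present, neither the knockout nor the missense allele moved these genes past the test. In WT/KO against WT/WT, edgeR called 0 of the 10 in either fit (0% of all genes with genotype alone and 0.0373% with the covariate), and at an unadjusted p under 0.05 it passed 0 and 1 of the 10 (4.27% and 11.1% of all genes). Zmat3 stood at 1.88 ± 1.17 (SE) and Bbc3 at -0.75 ± 0.63 with genotype alone. Without WT/WT replicate 1 these became 4.03 and -1.14, and without WT/WT replicate 2 they became 1.30 and -0.48. In WT/D45 against WT/WT, edgeR called 0 of the 10 and 0% of all genes in both fits, and at an unadjusted p under 0.05 it passed 0 and 2 of the 10 (1.45% and 4.38% of all genes). Zmat3 stood at 1.83 ± 1.25 (3.98 without WT/WT replicate 1 and 1.02 without WT/D45 replicate 2) and Bbc3 at -0.80 ± 0.72 (-1.19 without WT/WT replicate 1 and -0.47 without WT/D45 replicate 1). DESeq2 called 0 of the 10 in either comparison. Both comparisons share the WT/WT libraries.

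The difference between the D45 effect beside KO (D45/KO against WT/KO) and beside WT (WT/D45 against WT/WT) was tested directly. With genotype alone edgeR called 0 of the 10 genes, against 0.00746% of all genes, with Mdm2 at 1.496 ± 0.47 (SE) and Bbc3 at 2.46 ± 0.93. DESeq2 also called 0, and 5 of the 10 had an unadjusted p under 0.05, against 2.45% of all genes. With the covariate 2 of the 10 were called, against 0.186% of all genes, and 7 had an unadjusted p under 0.05, against 9.82%. The difference was 3.04 ± 0.43 for Bbc3 (edgeR adjusted p = 0.00490) and 1.65 ± 0.28 for Mdm2 (edgeR adjusted p = 0.0130). In this fit, which assumes the same slope on Cd79a in each genotype, the D45 effect on these transcripts was more positive beside KO than beside WT. By class, D45/KO against WT/KO stood at 2.94 (Cd79a-high) and 0.84 (Cd79a-low) for Bbc3, and at 1.57 and 0.78 for Mdm2. The Cd79a-low values rest on 1 D45/KO library. Over 15 fits that each left out 1 library, Bbc3 was called in 15 and Mdm2 in 12, being lost without WT/D45 replicate 1 or 3 or WT/WT replicate 2 (edgeR adjusted p = 0.0503 to 0.0698). The other 8 genes did not pass, with Ccng1 at 1.78 ± 0.53, Trp53inp1 at 1.40 ± 0.36 and Trp53 at 0.89 ± 0.36.

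In a test of any difference among the 5 genotypes, edgeR called 0 of the 10 genes with genotype alone (0.336% of all genes) and 5 with the covariate (2.88%), and 5 and 6 had an unadjusted p under 0.05 (4.8% and 12.8% of all genes). These were Bbc3 (edgeR adjusted p = 0.000369), Mdm2 (0.000738), Trp53inp1 (0.0174), Trp53 (0.0227) and Sesn2 (0.0379).

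**Figure D4:**
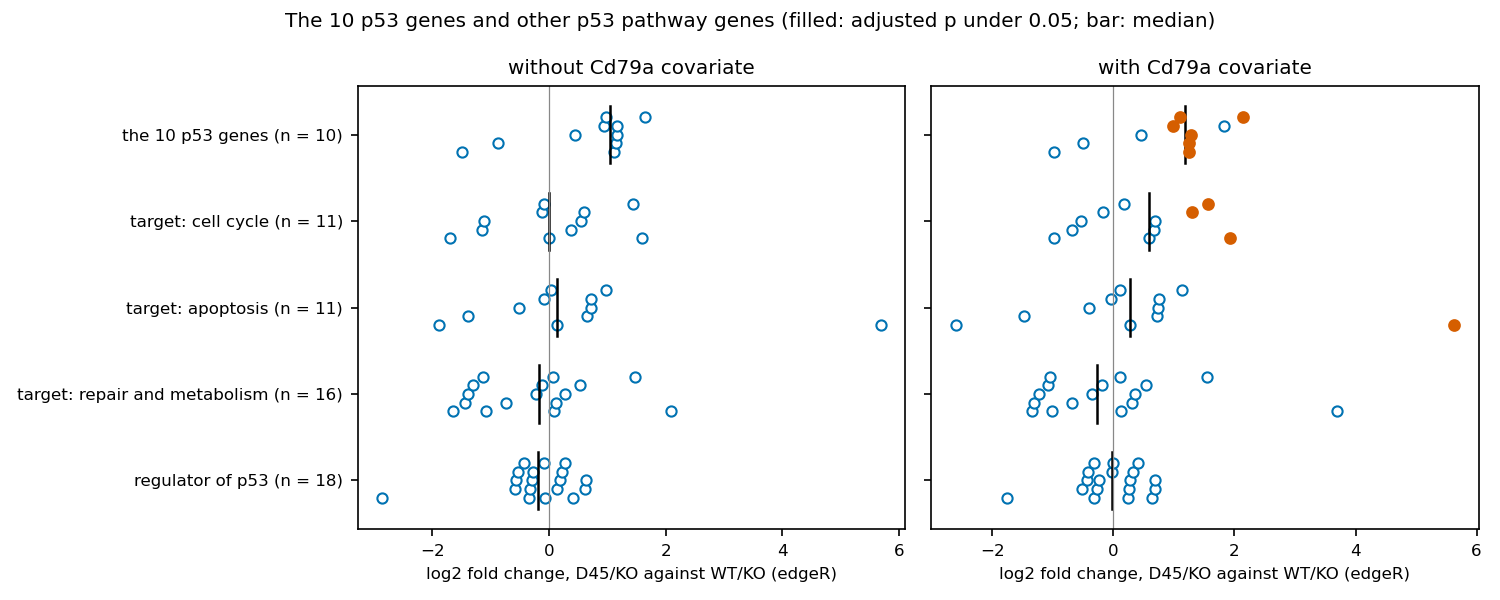
Log2 fold change of D45/KO against WT/KO (horizontal axis) for the 10 genes and for 56 other p53 pathway genes by role, without and with the Cd79a covariate. Filled points have an adjusted p under 0.05 and bars are medians. With the covariate 6 of the 10 and 4 of the 56 others are filled, all to the right of 0.

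A list of 57 other genes of the pathway, of which 56 were tested, showed where else it differed. In D45/KO against WT/KO, edgeR called 0 of the 56 with genotype alone, against 0.172% of all genes (median log2 fold change -0.07, against -0.15 over all genes, with 26 above 0). With the covariate it called 4 higher and 0 lower, against 2.51% of all genes called higher (median 0.11, against -0.03). By role, with the covariate and beside the 3.19% of all genes called, 3 of 11 cell cycle targets were called, 1 of 11 apoptosis targets, 0 of 16 repair and metabolism targets and 0 of 18 regulators of p53. Ccng2, an atypical cyclin linked to arrest, rose by 1.93 ± 0.31 (SE, edgeR adjusted p = 0.00168), with means ± SD of 96.7 ± 80.6 CPM over the 5 WT/KO libraries, 290.4 ± 88.3 CPM over the 4 D45/KO libraries and 263.3 ± 131 CPM over the 3 D45/D45 libraries.

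Psrc1, which encodes a spindle-associated protein, rose by 1.57 ± 0.30 (SE, edgeR adjusted p = 0.00649), with 32.4 to 50.1 CPM in D45/KO and 5.50 to 31.7 CPM in WT/KO, so that these groups did not overlap. Gadd45a, a stress sensor linked to arrest and DNA repair, rose by 1.29 ± 0.32 at equal Cd79a level (edgeR adjusted p = 0.0320). Its groups overlapped, with 352 to 711 CPM in D45/KO and 74.1 to 814 CPM in WT/KO, and with genotype alone it stood at 0.60 ± 0.75. The mean ± SD of Gadd45a in D45/KO (505 ± 159 CPM) was below those in WT/WT (573 ± 418 CPM) and D45/D45 (903 ± 589 CPM), and above that in WT/KO (333 ± 331 CPM). Eda2r, a receptor of the tumour necrosis factor family, had 1.56, 2.58, 2.09 and 1.85 CPM in D45/KO, and in WT/KO 0.132 CPM in replicate 1 and 0 in the other 4. Its test passed (edgeR adjusted p = 0.0347), but at such counts the fitted fold depends on the prior count. WT/WT replicate 2 (2.53 CPM) and WT/D45 replicate 2 (1.71 CPM) held as much Eda2r as D45/KO.

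Mdm2 was used to look for genes with a like pattern, by the Pearson correlation of log2 CPM over the 18 libraries after the linear effect of Cd79a was removed. This is a description over libraries that share genotype groups and depth, ranked among 13404 genes. The nearest gene was Bbc3 (r = 0.95), followed by Spty2d1 (0.94) and Usp33 (0.93), a date-like symbol that stands for no certain gene (0.92), and Mad2l1bp (0.92). Trp53inp1 was at rank 11 (0.90) and Sesn2 at rank 16 (0.88). Trp53 (0.71, rank 298) and Ccng1 (0.70, rank 332) were farther away, and Ccng1 had r = 0.28 with Mdm2 before Cd79a was removed. Cdkn1a (0.49), Bax (0.36), Zmat3 (-0.22) and Pmaip1 (-0.22) did not follow Mdm2 closely.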

How the data were processed

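The deposited counts were raw whole numbers per gene symbol for 18 libraries, and the authors' second table of filtered values was not used. Per the labels' protocols, RNA was extracted with Trizol and libraries were made with the Swift Rapid RNA kit. HISAT2, featureCounts, limma and mm9 stand in the submitters' processing notes without versions, and no source used here says if counts were strand-specific. The test was edgeR 4.0.16 in R 4.3.3 (filterByExpr by genotype, TMM, non-robust quasi-likelihood fit to all 18 libraries, Benjamini-Hochberg over 13405 genes, called under 0.05). The second fit added log2 CPM of Cd79a (prior count 2). Libraries at 10 CPM of Cd79a or more are Cd79a-high. The SE is the absolute log2 fold change divided by the square root of F. Alternatives were DESeq2 1.42.0, its size factors, no filter, a replicate block, single libraries left out and Cd79a classes. The even-count, macrophage and class fits were chosen after seeing the data. Scripts were tested on simulated data.

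The 10 genes and all lists were chosen with earlier results of these data known. All 10 are named in the levels and in D45/KO against WT/KO. In other comparisons called members are named, otherwise the 2 with the smallest p, and other members named were chosen after their values were seen. The other pathway genes named are those called in D45/KO against WT/KO, and the genes like Mdm2 are the 5 with the highest r. The design text calls the replicates biological, and the labels do not say that replicate numbers mark a batch. Same-numbered libraries had deviations correlated above 0.1 in all 3 pairs for D45/D45 against WT/WT (0.71, 0.35 and 0.19) and WT/D45 against WT/WT (0.71, 0.22 and 0.12), but not in the other comparisons (0.44, 0.63, 0.05 and 0.63 for D45/KO against WT/KO). Replicate 3 of D45/D45 and of WT/D45 correlated best with WT/WT replicate 2. Replicate 1 was the Cd79a-high library in each of these genotypes, and the part of Cd79a class in the values of 0.71 was not tested. Equal numbers are therefore not shown to mark matched sets.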

Additional observations from a re-analysis of the deposited data

Results flagged for a closer look

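Ccng1 in D45/KO replicate 2 was at 80.0 CPM, far from the 48.1 to 51.1 CPM of the other 3 libraries of that genotype. Zmat3 in the same library was at 3.39 CPM against 1.39 to 1.73 CPM. These were the 2 extreme values found among 20 groups of libraries examined, where chance gives about 1 in 20. This library also has nearly all even counts and the highest macrophage marker sum. The part of either in these values was not tested.

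The effect of the D45 allele differed with the partner allele for 2 of the 10 genes at equal Cd79a level, against 0.186% of all genes, and for 0 with genotype alone. The difference of effects was 3.04 on the log2 scale for Bbc3 and 1.65 for Mdm2, by edgeR's test of the difference. That fit assumes the same slope on Cd79a in each genotype. Bbc3 in D45/KO against WT/KO stood at 2.94 in Cd79a-high and 0.84 in Cd79a-low libraries, the latter with 1 D45/KO library. Mdm2 lost its call in 3 of 15 fits that left out 1 library (WT/D45 replicate 1, WT/D45 replicate 3 or WT/WT replicate 2), and Bbc3 in 0.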

How the results depend on the processing

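With genotype alone, 0 of the 10 genes and 0.172% of all genes were called in D45/KO against WT/KO. With the Cd79a covariate this became 6 (3.19%), with Cd79a class as covariate 6 (5.80%), with the covariate and a replicate block 5 (4.38%), with the covariate and DESeq2 size factors 5 (2.89%), and with the covariate and no filter 6 (1.89%). Over Cd79a-high libraries only it was 5 (7.55%), and over Cd79a-low libraries only 0 (0.335%), where D45/KO had 1 library against 2 of WT/KO and Pmaip1 stood at 0.51 and Zmat3 at 0.67, opposite in sign to the full set but from that 1 library, assumed to vary like the others. The replicate block alone gave 4 (0.955%), DESeq2 2 (1.38%), DESeq2 size factors in edgeR 0 (0.283%) and no filter 0 (0.102%). Without the even-count libraries and with the covariate it was 4 (2.58%), and without the macrophage-high libraries 0 (0.0938%), or 2 (1.97%) with the covariate. Leaving out single libraries gave 0 of the 10 genes and 0.0669% to 0.272% of all without the covariate, and 4 to 6 and 1.73% to 5.39% with it, the ends of the latter being without WT/KO replicate 4 and WT/KO replicate 5.

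In D45/KO against WT/WT the 0 called of the 10 genes (0.619% of all genes) became 5 with the covariate (3.68%), with Cd79a class (4.10%), and with the covariate and no filter (2.09%). It became 3 with the covariate and a replicate block (2.13%), with the covariate and DESeq2 size factors (3.75%), and with the covariate but without the macrophage-high libraries (4.12%). It became 2 with the covariate without the even-count libraries (3.15%), 1 with DESeq2 (3.03%) and with DESeq2 size factors (0.940%), and 2 to 5 with the covariate and single libraries left out (1.68% to 4.74%). Over Cd79a-low libraries it was 1 (2.35%), a call that rests on 1 D45/KO library. The difference of D45 effects had 2 called under each other setting with the covariate or the Cd79a class, and 1 to 2 with single libraries left out, where 0.160% to 0.328% and 0.0484% to 0.598% of all genes were called. The test over 5 genotypes had 5 with the covariate (2.88%) or class (3.30%). The replicate block left 0 of the 10 called in D45/D45 and in WT/D45 against WT/WT, where same-numbered libraries were correlated above 0.1. The slope of Trp53 on Cd79a was 0.0040 with DESeq2 size factors. These size factors moved the median of all genes in D45/KO against WT/KO from -0.15 to -0.26. The causes of these shifts were not tested.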
